A study of Mus musculus with 14 samples.

Results

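WT mouse CD4+ T cells that were restimulated through the T cell receptor (TCR) were compared with WT CD4+ T cells that were only activated, in 7 of the 14 RNA-Seq libraries of a study of the histone deacetylases HDAC1 and HDAC2. All 7 are labelled as wild type, C57BL/6, and spleen, although the general methods of the study pool spleen with lymph nodes, and mice of both sexes aged 6 to 12 weeks were used in general. For the 4 activated libraries naive CD4+ T cells had been sorted by surface markers that included low CD44 and no CD25 and cultured for 3 days without polarizing cytokines ("Th0") on plate-bound anti-CD3ε and anti-CD28 with recombinant human IL-2. The 3 restimulated libraries came from CD4+ T cells that spent 3 days on the same pair of antibodies and then 12 hours on anti-CD3, and whether naive sorting and IL-2 were the same for them is not given in the sources used here. Viable cells were sorted for RNA in both. The activated libraries are described as 4 independent cell batches prepared on 1 day, and for the restimulated libraries no source used here says whether they came from separate mice, so their spread may be technical.

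The 2 groups belong to separate experiments whose files were made with different gene annotations, and these cannot be told apart from restimulation. The activated files list 36394 to 37174 annotated genes by name, the restimulated files 23327 to 24038. Values are FPKM, that is, sequenced fragments relative to transcript length and to the mapped reads of the library, scaled here so that the median gene had the same ratio in every library, and a gene that a file holds only as a nameless assembled locus was taken as that gene where the shared bases made up at least 0.8 of the joint span. Of 29317 autosomal genes with a value in all 7 libraries, 13038 had a mean scaled FPKM of at least 0.1 and were tested. A gene with a mean under 0.1 in 1 group passed through the other group alone, so the sign of its change is fixed by that filter. A gene was called higher or lower where its fold change on log2(scaled FPKM + 0.1) was at least 4, the adjusted p of limma was at most 0.05, and the groups did not overlap, and calls at a fold change of at least 2 are named as such.

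Engagement of the TCR with CD28 sends calcium, kinase, and adaptor signals to the transcription factors NFAT, AP-1, and NF-κB, which drive cytokine genes, chemokine genes, and ligands of the TNF family. A naive cell leaves quiescence over days, divides, and turns to glycolysis and sterol synthesis. A cell that is already activated and meets anti-CD3 again transcribes effector genes more readily and also raises regulators that shut the signal down.

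The libraries had the transcripts of CD4+ T cells, and most tested markers of other cell types were low. *Cd4*, the coreceptor gene, was 219 ± 3.76 (SD, n = 4) in activated and 202 ± 30.6 (SD, n = 3) in restimulated cells (log2 fold change -0.13 ± 0.10 (SE), limma adjusted p = 0.37). None of 15 tested CD4 T cell marker genes was called, with a median log2 fold change of -0.20 and sums of 3844 to 4143 against 3282 to 3657 scaled FPKM, although the CD3 chain gene *Cd3g* (log2 fold change -0.75 ± 0.11 (SE), limma adjusted p = 0.00261) and the adhesion gene *Cd2* (log2 fold change -0.95 ± 0.13 (SE), limma adjusted p = 0.0023) were lower without reaching 2-fold. Of the 2 CD8 markers *Cd8a* was too low to test and *Cd8b1* ranged from 3.34 to 6.05 and from 3.53 to 4.79 in the respective groups. Tested B cell markers (3 of 9) summed to 0.56 to 1.01 and 0.722 to 1.01, and tested myeloid and dendritic markers (3 of 16) to 1.52 to 5.29 and 2.70 to 4.83. Most of the latter sums was *Batf3*, at 1.38 to 4.39 and 1.90 to 4.35, which is also among the TCR-induced transcription factor genes listed below. The macrophage gene *Adgre1* was higher by the 2-fold rule at 0.194 to 0.335 against 0.0233 to 0.0812. Its activated mean of 0.053 was under the 0.1 of the filter, which set the sign of its change. Among γδ T cell markers (2 of 6 tested) *Tcrg-C1* was 0.487 to 0.649 in the activated libraries and is listed at 0 in all 3 restimulated ones. Stromal markers (4 of 9 tested) summed to 18.1 to 24.6 against 9.11 to 13.4. Most of each sum was the adhesion gene *Pecam1*, at 16.2 to 22.5 against 7.83 to 11.5, so the sums mainly follow that gene. *Pecam1* was lower by the 2-fold rule (log2 fold change -1.03 ± 0.16 (SE), limma adjusted p = 0.00367, and -0.89 without restimulated replicate 3). *Hbb-bt*, the only erythroid marker of 7 tested, with 1 copy, was 0.153 to 0.519 in the activated and is listed at 0 in the restimulated libraries. A listing at 0 need not mean that the transcript was absent. *Romo1*, a mitochondrial gene that cells use widely and whose exons overlap *Nfs1*, is also listed at 0 in these 3 libraries. *Nkg7*, a granule gene and the only 1 of 7 NK markers tested, was 19.4, 26.5, and 145 in the restimulated and 30.3 to 49.6 in the activated libraries. The part of these other cell types in the results was not tested, and fewer cells of a type and less RNA per cell cannot be told apart in bulk samples.

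*Hdac1*, intact by genotype, was 80.5 ± 1.41 and 73.0 ± 3.28 (log2 fold change -0.14, limma adjusted p = 0.0455), and *Hdac2* was 60.9 ± 1.18 and 69.8 ± 6.74 (log2 fold change 0.19, limma adjusted p = 0.0764). *Xist*, the RNA of the inactive X chromosome, was 58.9 to 65.2 FPKM in the activated libraries and 42.9, 0.0188, and 33.2 in restimulated replicates 1, 2, and 3, so replicate 2 stood apart from the other 6 in this respect. Depth estimated from the confidence bounds in the files was 35000000 to 51800000 fragments in activated and 26800000 to 35600000 in restimulated libraries. At 0.1 to 1 FPKM the upper bound lay 52.1% to 63.9% above the value in activated and 66.7% to 89.4% in restimulated libraries, and at 10 FPKM or more the range over all 7 was 5.54% to 6.74%, so low genes are the less precise ones. The smallest 2-sided p that an exact permutation test of 3 against 4 libraries allows is 0.0571, above 0.05, so single genes rest on the limma fit across all genes.

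Restimulated cells had 264 genes called higher, 2.02% of the genes tested, and 150 called lower, 1.15%. By the 2-fold rule 848 were higher (6.5%) and 542 lower (4.16%). The counts given below for each gene list are to be read beside these shares, and a list with a count near them does not stand out from all genes. The median log2 fold change of all genes was 0.02, and 4190 genes (32.1%) passed an adjusted p of 0.05 by limma, which includes any difference between the experiments. Protein-coding genes made up 71.6% of the genes called higher and 59.3% of those called lower, and 30 higher and 27 lower ones were processed pseudogenes. A near-identical coding copy elsewhere in the genome was present for 27 (14.3%) of the protein-coding genes called higher, 23 (25.8%) of those called lower, and 1438 (13.7%) of all 10511 tested. Loci that differed between the 2 experiments made up 16.3% of the genes called higher and 18.0% of those called lower, against 4.57% of all genes. Such loci share less than 0.8 of their joint span, so the values of the 2 groups may not cover the same transcript. The group with the lower mean was listed at 0 throughout for 55 of the genes called higher and 56 of those called lower.

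**Figure D1:**
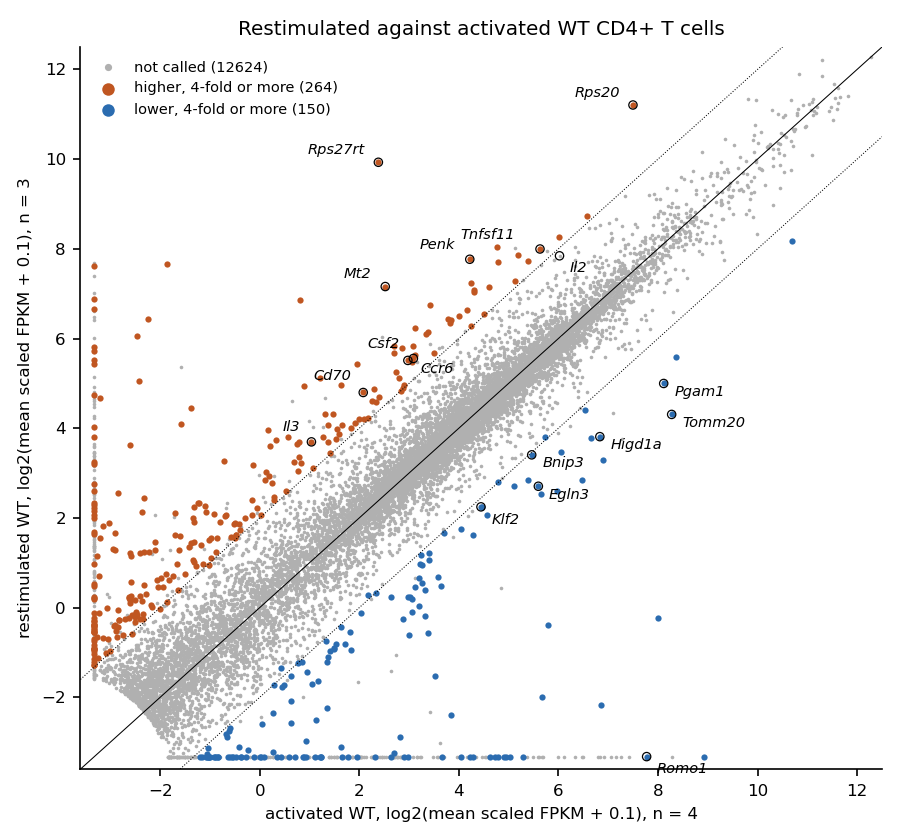
Mean scaled FPKM of each of the 13038 tested genes in activated (x axis, n = 4) and restimulated (y axis, n = 3) WT CD4+ T cells, both as log2(mean + 0.1), with 264 genes called higher in orange and 150 called lower in blue. The solid line marks equal levels and the dotted lines a 4-fold change, and the named genes include *Rps27rt*, *Romo1*, and *Tomm20*, whose reads can belong to copies or overlapping genes.

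The largest changes included genes whose reads other genes share, and 8 of the 20 largest rises and 9 of the 20 largest falls among protein-coding genes with alike loci in both experiments had neither a near-identical copy nor another gene over their exons. The highest rise was that of the ribosomal protein gene *Rps27rt*, from between 4.07 and 6.39 to between 908 and 1024, but it has 10 near-identical copies. *Rps20* (log2 fold change 3.71 ± 0.06 (SE), limma adjusted p = 2.22e-07), with 5 copies and *Gm24016* over its exons, and *Ufm1* (log2 fold change 2.93 ± 0.07 (SE), limma adjusted p = 6.84e-07), *Taf10* (log2 fold change 2.93 ± 0.08 (SE), limma adjusted p = 9.62e-07), whose exons overlap *Ilk*, and *Prkrip1* (log2 fold change 3.14 ± 0.06 (SE), limma adjusted p = 2.24e-07), with 1 copy each, rose as well. Among the falls, *Tomm20*, a mitochondrial import receptor gene with 10 copies, went from 309.7 ± 9.97 to 19.7 ± 2.82, *Gm10282*, with 25 copies, from between 12.9 and 15.3 to between 0.0246 and 0.163, and *Pgam1*, the phosphoglycerate mutase gene of glycolysis, with 3 copies, from 277 ± 4.60 to 31.9 ± 2.78. *Romo1* (206 to 226 in activated libraries, 1 copy, exons shared with *Nfs1*), *Gm20721* (465 to 508, exons shared with *Gnas*), *Pdzd9* (15.98 to 16.6, exons shared with *Uqcrc2*), *B430305J03Rik* (5.85 to 6.75, exons shared with *Rap2b*), and *Cebpb* (6.16 to 8.79, exons shared with *Tmem189*) were listed at 0 in all 3 restimulated libraries, and no fold is given for them. For these genes the assignment of reads to a locus is uncertain.

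Among the rises free of such overlap, *Cd59b*, a gene for a membrane inhibitor of complement (chromosome 2, 104069849 to 104091187 in GRCm38), was 1.71, 1.77, 2.02, and 1.56 in the activated and 29.0, 31.8, and 31.3 in the restimulated libraries. The groups lay far apart with little spread (log2 fold change 4.05 ± 0.10 (SE), limma adjusted p = 7.48e-07, 17.4-fold as the ratio of the group means, as for every fold given below). *Minos1*, a gene of the mitochondrial cristae complex, went from 27.0 ± 1.25 to 263 ± 16.6 (log2 fold change 3.28 ± 0.06 (SE), limma adjusted p = 2.24e-07), *Slc4a11*, a membrane transporter gene, from 1.64 ± 0.165 to 12.8 ± 2.37 (log2 fold change 2.88 ± 0.15 (SE), limma adjusted p = 2.67e-05), and *Lad1*, an anchoring filament gene, from 19.7 ± 5.25 to 136 ± 23.0 (log2 fold change 2.79 ± 0.22 (SE), limma adjusted p = 0.000177). *Perp*, a p53 target gene of cell junctions, went from 6.36 ± 1.57 to 50.8 ± 16.3 (log2 fold change 2.97 ± 0.27 (SE), limma adjusted p = 0.000341), and *Cpne2*, a gene for a calcium-dependent phospholipid-binding protein, from 1.38 ± 0.223 to 13.9 ± 7.32 (log2 fold change 3.101 ± 0.37 (SE), limma adjusted p = 0.00122). *Nebl*, an actin-binding protein gene, was 0.563 to 2.09 against 13.2 to 18.4, with activated replicate 1 apart from the other activated libraries.

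*Mt2*, a metallothionein gene that binds zinc, overlaps the predicted gene *Gm45774* and was 4.66, 4.20, 8.23, and 5.48 in activated and 192, 165, and 71.3 in restimulated libraries. Every restimulated value was far above every activated one (log2 fold change 4.56 ± 0.39 (SE), limma adjusted p = 0.00026). *Mt1*, its neighbor, chosen after its values were seen, rose too, from 15.9 ± 5.76 to 91.2 ± 33.3 (log2 fold change 2.51 ± 0.38 (SE), limma adjusted p = 0.00314). The calcium channel gene *Cacna1s* rose from between 0.0301 and 0.114 to between 9.80 and 16.1, *Mkln1*, the muskelin gene, from between 6.22 and 23.5 to between 101 and 116, *Ramp3*, a subunit of adrenomedullin receptors, from between 1.31 and 3.84 to between 11.6 and 67.6, and *Serpinc1*, the antithrombin gene, from between 0.567 and 1.30 to between 3.61 and 12.3, and another annotated gene lies over exons of each of these 4. *Adm*, which encodes adrenomedullin and has no overlapping gene, rose from between 0.635 and 1.47 to between 4.25 and 25.4, highest in restimulated replicate 1.

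Among the falls free of overlap, *Rasgef1b*, a Ras family exchange factor gene, was 6.01, 5.58, 7.58, and 6.21 in activated libraries and at or near 0 in the restimulated ones, the highest being 0.0102. It carried its name in 3 of the 7 libraries and was matched by position in the rest, so its values come from named and nameless loci. *Stfa3*, a stefin protease inhibitor gene, went from 88.6 ± 15.5 to 7.10 ± 1.10 (log2 fold change -3.62 ± 0.16 (SE), limma adjusted p = 1.37e-05), *Vamp5*, a vesicle protein gene, from 9.06 ± 1.11 to 0.918 ± 0.0995 (log2 fold change -3.17 ± 0.13 (SE), limma adjusted p = 8.41e-06), and *Itih5*, an inter-alpha-trypsin inhibitor gene, from 12.46 ± 1.17 to 1.29 ± 0.422 (log2 fold change -3.21 ± 0.20 (SE), limma adjusted p = 6.27e-05). *Akr1c18*, a progesterone-metabolizing aldo-keto reductase gene, went from 62.8 ± 23.8 to 5.99 ± 2.00, *Slc14a1*, a urea transporter gene, from 8.29 ± 0.981 to 0.8288 ± 0.731, and *Dlk1*, a Notch ligand-like gene, from 8.06 ± 0.643 to 1.08 ± 0.788. *Emp1*, an epithelial membrane protein gene, was 11.5, 13.5, 2.98, and 11.8 against 2.503, 0.824, and 0.332, so activated replicate 3 came close to the restimulated group, and its adjusted p (0.0204, limma) rose above 0.05 without activated replicate 1, 2, or 4 or restimulated replicate 2 or 3, though the log2 fold change stayed at -2.49 or lower. *Pcsk6*, a proprotein convertase gene that overlaps *Gm45213*, went from 115 ± 17.6 to 0.122 ± 0.0802, and *Serpina3f*, a serpin with 2 near-identical copies, from between 6.90 and 15.1 to between 0.126 and 4.94 (limma adjusted p = 0.0408), and it missed that threshold without any 1 library but restimulated replicate 3 (-4.41 to -2.17). Without restimulated replicate 1 the log2 fold change of *Slc14a1* was -4.10, and without replicate 3 that of *Dlk1* was -2.45.

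Cytokine genes were split. Of 29 listed, 22 were tested, 4 were called higher and 1 lower by the 4-fold rule, 6 higher and 1 lower by the 2-fold rule, and the median log2 fold change was 0.23. *Il3*, *Csf2*, *Il13*, and *Penk* made up the 4, although *Penk* encodes an opioid precursor and not a cytokine. The promoters of 3 of them are shown from 250 bases before to 50 bases after the RefSeq start (GRCm38.p6), 5′ to 3′ on the strand of the gene. By rule, promoters were to be shown for the 4 largest called rises of this list, and the RefSeq set used here held none for *Penk*. Capitals mark the NFAT core GGAAA or its reverse complement. *Il3* is at chr11:54267230-54267529, *Csf2* at chr11:54249850-54250149, and *Il13* at chr11:53634653-53634952, all on the minus strand. The *Csf2* window lies wholly upstream of the GENCODE gene, whose start on this strand is at 54249667. It leaves out the bases nearest to that start, so it does not cover the whole promoter of the gene measured.
Il3: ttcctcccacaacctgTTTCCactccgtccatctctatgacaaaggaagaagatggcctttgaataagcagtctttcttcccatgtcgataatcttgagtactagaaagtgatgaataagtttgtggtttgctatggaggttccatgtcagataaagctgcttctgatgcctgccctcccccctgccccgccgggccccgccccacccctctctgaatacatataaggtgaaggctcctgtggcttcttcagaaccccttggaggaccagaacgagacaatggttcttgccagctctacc
Csf2: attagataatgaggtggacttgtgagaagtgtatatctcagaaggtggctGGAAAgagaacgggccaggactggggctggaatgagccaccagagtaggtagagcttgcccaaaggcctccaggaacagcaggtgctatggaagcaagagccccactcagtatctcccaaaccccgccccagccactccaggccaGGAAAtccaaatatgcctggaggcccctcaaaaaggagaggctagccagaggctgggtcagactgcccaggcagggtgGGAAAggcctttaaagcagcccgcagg
Il13: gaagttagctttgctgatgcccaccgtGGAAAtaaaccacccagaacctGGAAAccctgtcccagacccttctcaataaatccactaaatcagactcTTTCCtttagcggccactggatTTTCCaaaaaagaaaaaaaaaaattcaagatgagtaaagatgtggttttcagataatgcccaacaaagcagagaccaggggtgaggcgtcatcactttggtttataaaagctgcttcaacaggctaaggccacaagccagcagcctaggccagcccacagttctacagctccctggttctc

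The core GGAAA was found 1 time in the *Il3* window, 3 times in that of *Csf2*, and 4 times in that of *Il13*. Neither the AP-1 motif TGANTCA nor the NF-κB motif GGGANTTTC was found in these windows, and the bases nearest to the GENCODE start of *Csf2* were not searched. Both strands were searched, and the last 4 letters of the NF-κB motif can overlap the reverse complement of the NFAT core. GGAAA was present in 61.3% of all 32851 RefSeq promoters of this length, in 54.4% of the promoters of genes called higher, and in 60.0% of those of genes called lower. TGANTCA was in 7.81%, 7.69%, and 9.47% and GGGANTTTC in 1.11%, 1.65%, and 1.05% of the same sets. Over the promoters of the tested genes the shares were 58.4% for GGAAA, 5.06% for TGANTCA, and 0.874% for GGGANTTTC. These matches describe letters in a window only.

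*Il3*, a growth factor of early hematopoietic cells and mast cells, was 2.17, 1.88, 2.41, and 1.36 in the activated and 17.7, 7.28, and 13.6 scaled FPKM in the restimulated libraries. The groups were well apart, with replicate 1 highest (6.58-fold, log2 fold change 2.59 ± 0.33 (SE), limma adjusted p = 0.00152). *Csf2*, which encodes the myeloid growth factor GM-CSF, was 12.9, 5.72, 7.86, and 7.10 against 60.8, 23.0, and 57.0. Replicate 2 was the lowest of the restimulated libraries and still above every activated one (5.59-fold, log2 fold change 2.41 ± 0.41 (SE), limma adjusted p = 0.00539), and the predicted gene *Gm12223* lies over its exons. *Penk*, which encodes the opioid precursor proenkephalin (chromosome 4, 4133531 to 4138819), was 33.3, 11.2, 17.9, and 11.8 against 237, 194, and 222. Its restimulated values were close together (11.8-fold, log2 fold change 3.69 ± 0.38 (SE), limma adjusted p = 0.000599), with *A830012C17Rik* over its exons. *Il13*, a type 2 cytokine, was low in every library, 0.282, 0.143, 0.27, and 0 against 1.34, 1.04, and 0.601, and did not overlap between the groups (log2 fold change 2.12 ± 0.53 (SE), limma adjusted p = 0.0233). The call of *Il13* was lost without activated replicate 2 or 4 or restimulated replicate 1 or 2 (log2 fold change 1.69 to 2.40 over all omissions).

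*Il2*, the T cell growth factor gene (chromosome 3, 37120523 to 37125959 in GRCm38), was 80.7, 48.01, 73.4, and 57.4 in activated and 242, 181.6, and 265 in restimulated libraries. It rose 3.54-fold with no overlap, under the 4-fold rule (log2 fold change 1.83 ± 0.21 (SE), limma adjusted p = 0.00102). *Areg*, which encodes the EGF receptor ligand amphiregulin, rose by the 2-fold rule from between 0.722 and 1.11 to between 1.93 and 8.70, with replicate 1 highest, and it missed the adjusted threshold without any 1 activated library, while its log2 fold change was 1.13 without restimulated replicate 1. *Spp1*, which encodes osteopontin, fell, from 5.22, 11.8, 5.77, and 8.57 to 0.453, 0.378, and 0.824. Its groups were far apart (14.2-fold lower, log2 fold change -3.59 ± 0.35 (SE), limma adjusted p = 0.00051), with the predicted gene *Gm42793* over its exons.

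Several other cytokine genes did not pass. *Tnf* was 48.9, 48.8, 37.8, and 36.6 in activated and 27.0, 37.2, and 57.1 in restimulated libraries, with the groups overlapping (log2 fold change -0.14 ± 0.26 (SE), limma adjusted p = 0.698). *Ifng*, the type 1 effector cytokine, was 0.626 to 1.57 against 1.05, 0.433, and 3.84, so 1 restimulated library stood above all activated ones and 1 below them (log2 fold change 0.37 ± 0.67 (SE), limma adjusted p = 0.709). *Lif* (log2 fold change -0.50 ± 0.41 (SE), limma adjusted p = 0.388), *Il9* (log2 fold change 1.98 ± 1.13 (SE), limma adjusted p = 0.228), and *Il10* (log2 fold change 1.12 ± 0.63 (SE), limma adjusted p = 0.222) also overlapped or missed the threshold, the last 2 with replicate 1 far above replicates 2 and 3. *Ebi3*, a subunit of IL-27 and IL-35, was 3.83, 0, 4.15, and 0 in the activated libraries, listed at 0 in 2 of them, and 22.4, 13.5, and 12.7 in the restimulated ones (limma adjusted p = 0.0662). *Il4*, *Il6*, *Il21*, and *Ltb* had no value in all 7 libraries and are not reported.

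**Figure D2:**
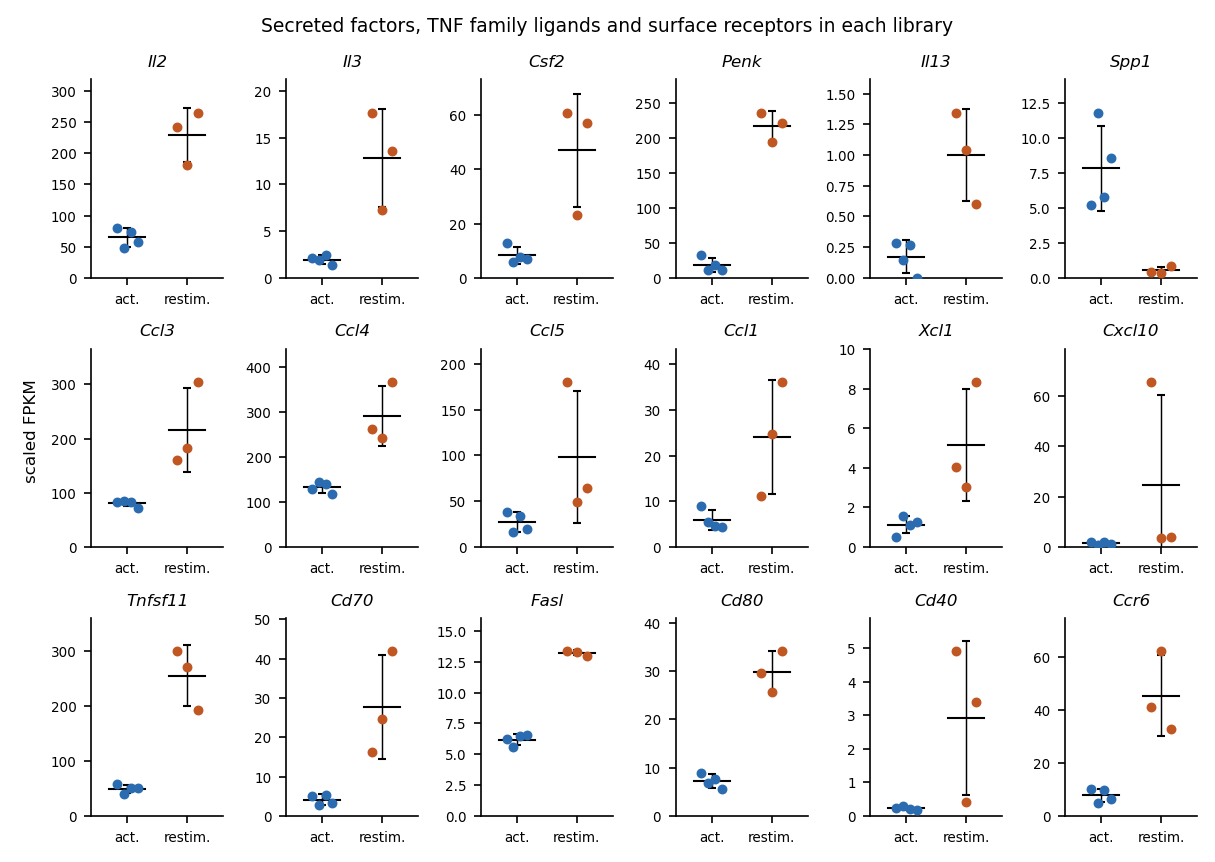
Scaled FPKM (y axis, from 0, a scale of its own in each panel) of genes for secreted factors, TNF family ligands, and surface receptors in each activated (blue, n = 4) and restimulated (orange, n = 3) library, with the mean and SD in black. Among them *Il2*, *Il3*, *Csf2*, *Penk*, *Tnfsf11*, and *Cd70* were higher in every restimulated library than in any activated one, *Spp1* was lower, and *Cxcl10* was far highest in restimulated replicate 1.

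Of 16 listed chemokine genes, all 14 that were tested had a positive log2 fold change (median 1.64, range 0.96 to 2.78), 8 were higher by the 2-fold rule, 3 of these by the 4-fold rule, and none was lower. *Cxcl1*, *Cxcl2*, *Cxcl11*, *Ccl9*, and *Ccl17* had activated means of 0.0174 to 0.0651, under the 0.1 of the filter. They passed it only through restimulated means of 0.18 to 1.03, so their positive sign was set by the filter and raises the median. *Cxcl1* was listed at 0 in restimulated replicate 2. *Ccl22*, a ligand of CCR4, was 0.194, 0.143, 0.239, and 0.104 in activated and 0.991, 1.01, and 2.71 in restimulated libraries. The groups were apart at low levels (log2 fold change 2.505 ± 0.39 (SE), limma adjusted p = 0.00348). *Ccl9*, a ligand of CCR1, went from between 0.0608 and 0.069 to between 0.379 and 1.603 (log2 fold change 2.59 ± 0.42 (SE), limma adjusted p = 0.00443), and *Xcl1*, the ligand of XCR1 on cross-presenting dendritic cells, with *Gm20743* over its exons, from between 0.518 and 1.55 to between 3.06 and 8.38 (log2 fold change 2.07 ± 0.45 (SE), limma adjusted p = 0.0138). The log2 fold change of *Xcl1* was 1.77 without activated replicate 1 and 1.66 without restimulated replicate 3, both under 4-fold.

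The inflammatory chemokine genes *Ccl3* and *Ccl4*, present at higher levels, rose by the 2-fold rule. *Ccl3* was 83.2, 85.2, 82.2, and 72.3 in activated and 161, 182.1, and 305 in restimulated libraries, and *Ccl4* was 129, 145, 139, and 117 against 262, 242, and 367. Each varied little among activated libraries and did not overlap between the groups (2.68-fold and 2.19-fold, limma adjusted p = 0.00367 and 0.00214). *Ccl5* went from 27.2 ± 10.9 to 98.0 ± 72.0 (log2 fold change 1.70 ± 0.52 (SE), limma adjusted p = 0.0453), with replicate 1 far above the other restimulated libraries, and *Ccl1*, a ligand of CCR8, from 5.87 ± 2.16 to 24.0 ± 12.54 (log2 fold change 1.92 ± 0.44 (SE), limma adjusted p = 0.0162). The locus of *Ccl1* differed between the experiments, with 0.024 of the joint span shared, so this change and its place among the 8 calls are uncertain. *Cxcl16* rose from between 0.112 and 0.298 to between 0.349 and 0.644, with *Zmynd15* over its exons. The call of *Cxcl16* was lost without any 1 library but activated replicate 1 (log2 fold change 0.82 to 1.24) and that of *Ccl5* without any but restimulated replicate 2 (1.14 to 2.08), and *Ccl1* missed the adjusted threshold without restimulated replicate 2 and *Ccl4* the fold minimum without restimulated replicate 3 (0.93). *Cxcl10*, an interferon-induced ligand of CXCR3 that overlaps *Art3*, was 1.89, 0.641, 2.13, and 1.22 against 65.7, 3.56, and 3.97. Replicate 1 stood far above replicates 2 and 3, and the test was not passed (limma adjusted p = 0.0874).

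TNF family ligands were higher where they passed. Of 9 tested (10 listed), 3 were higher by the 2-fold rule, 2 of these by the 4-fold rule, none was lower, and the median was 0.77. *Tnfsf11*, which encodes RANKL, a ligand for osteoclast formation and dendritic cell survival (chromosome 14, 78277445 to 78308043), was 57.8, 39.3, 50.6, and 49.98 in activated and 301, 272, and 193 in restimulated libraries. There was a wide gap between the groups (5.16-fold, log2 fold change 2.35 ± 0.19 (SE), limma adjusted p = 0.00019). *Cd70*, the ligand of CD27, was 5.06, 2.66, 5.43, and 3.36 against 16.3, 24.7, and 42.0, highest in replicate 3 (6.71-fold, log2 fold change 2.67 ± 0.38 (SE), limma adjusted p = 0.00237). *Fasl*, the death ligand, was 6.19 ± 0.439 against 13.2 ± 0.212, with little spread in either group (2.14-fold, log2 fold change 1.09 ± 0.07 (SE), limma adjusted p = 9.59e-05). *Tnfsf8*, which encodes the CD30 ligand, was 62.5 to 65.8 against 190.2, 97.2, and 77.9 without overlap and missed the threshold (limma adjusted p = 0.0654).

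Of 14 tested genes of TNF family receptors (14 listed), 1 was higher by the 4-fold rule, 2 higher and 1 lower by the 2-fold rule, and the median was 0.10. *Cd40*, better known from B cells and dendritic cells, was 0.234, 0.284, 0.221, and 0.175 against 4.92, 0.407, and 3.39, with replicate 2 just above the activated range (log2 fold change 2.67 ± 0.76 (SE), limma adjusted p = 0.0361). The call was lost without any 1 library but restimulated replicate 2, without which the log2 fold change was 3.68. *Ltbr*, the lymphotoxin β receptor gene, was higher at 0.182 to 0.299 against 0.0485 to 0.111, and *Tnfrsf8*, which encodes CD30, lower at 0.435 to 0.574 against 0.776 to 1.88. The activated mean of *Ltbr*, 0.070, was under the 0.1 of the filter, which set the sign of its change. *Ltbr* fell short of 2-fold without activated replicate 2 or restimulated replicate 2 or 3 (0.91 at the lowest), and *Tnfrsf8* was lost without any 1 library but activated replicate 2 (-1.24 to -0.85). *Tnfrsf4*, which encodes OX40, was high in both groups, 554 ± 48.2 and 683 ± 11.5.

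Among 26 tested costimulatory and inhibitory receptor genes (28 listed, median 0.06), 1 was higher by the 4-fold rule, and 3 were higher and 1 lower by the 2-fold rule. *Cd80*, the B7 ligand of CD28 and CTLA-4, was 8.95, 6.76, 7.61, and 5.54 in activated and 29.6, 25.7, and 34.2 in restimulated libraries. No restimulated value came near the activated range (4.14-fold, log2 fold change 2.04 ± 0.18 (SE), limma adjusted p = 0.000271), and the log2 fold change was 1.92 without activated replicate 4 and 1.94 without restimulated replicate 3, just under 4-fold. *Crtam*, a receptor tied to CD4+ T cells with cytotoxic potential, went from 8.47 ± 0.735 to 20.98 ± 6.51 (2.48-fold) and *Cd96*, a nectin receptor gene, from 10.6 ± 0.62 to 24.1 ± 5.38 (2.27-fold, and a log2 fold change of 0.98 without restimulated replicate 3). *Slamf6*, a SLAM family receptor of less differentiated T cells, fell, from 54.7 ± 3.00 to 20.4 ± 5.98 (2.68-fold). *Ctla4* (log2 fold change -0.30 ± 0.11 (SE), limma adjusted p = 0.0876) and *Pdcd1* (log2 fold change 0.31 ± 0.11 (SE), limma adjusted p = 0.0726), the genes of the inhibitory receptors CTLA-4 and PD-1, did not pass, and the locus of *Ctla4* differed between the experiments (0.236 of the joint span shared).

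Of 21 tested cytokine receptor genes (29 listed, median -0.01), none was called by the 4-fold rule and 2 were higher by the 2-fold rule. These were the IL-1 decoy receptor gene *Il1r2*, from 0.576 ± 0.102 to 2.22 ± 0.306 (log2 fold change 1.78 ± 0.17 (SE), limma adjusted p = 0.000464), and *Il9r*, from 0.195 ± 0.0883 to 1.19 ± 0.871 (log2 fold change 1.99 ± 0.46 (SE), limma adjusted p = 0.0182). *Il2ra*, the high-affinity IL-2 receptor chain, was 365, 343, 343, and 309.8 in activated and 311, 253, and 225 in restimulated libraries, overlapping (log2 fold change -0.38 ± 0.12 (SE), limma adjusted p = 0.0442).

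Of 21 tested homing and adhesion receptor genes (27 listed, median 0.25), 1 was higher by the 4-fold rule, and 4 were higher and 2 lower by the 2-fold rule. *Ccr6*, the receptor of CCL20, was 10.1, 4.92, 9.72, and 6.29 in activated and 41.2, 62.5, and 32.9 in restimulated libraries. All restimulated values were well above the activated range, highest in replicate 2 (5.86-fold, log2 fold change 2.55 ± 0.32 (SE), limma adjusted p = 0.00153). *Ccr7*, the lymph node homing receptor, rose 2.2-fold, from 351 ± 44.8 to 772 ± 194, and *Cd44*, the hyaluronan receptor of activated T cells, 2.33-fold, from 58.5 ± 9.50 to 136 ± 11.9. The integrin αv gene *Itgav*, with *Gm13684* over its exons, rose from between 5.19 and 6.19 to between 9.13 and 19.1 and the integrin β3 gene *Itgb3* fell from between 8.56 and 10.3 to between 3.54 and 5.10. *Itgav* missed the adjusted threshold without activated replicate 2, 3, or 4 and was 0.72 on the log2 scale without restimulated replicate 1, and without restimulated replicate 3 *Itgb3* was -0.91 and *Ccr7* 0.96.

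Few quiescence genes were called. Of 21 tested (22 listed, median 0.10), 1 was higher and 1 lower by the 4-fold rule, and 2 higher and 1 lower by the 2-fold rule. Over all genes the shares were 2.02% and 1.15% by the 4-fold and 6.5% and 4.16% by the 2-fold rule, so these counts say little about the list. *Klf2*, a factor of T cell quiescence and egress (chromosome 8, 72319033 to 72321656), was 17.9, 22.7, 22.7, and 23.4 in activated and 5.48, 4.85, and 3.60 in restimulated libraries. It fell 4.67-fold with no overlap (log2 fold change -2.21 ± 0.16 (SE), limma adjusted p = 0.000143). *Klf4*, a related factor that restrains proliferation, was 3.27, 2.24, 3.30, and 2.504 against 32.3, 6.84, and 7.84, far highest in replicate 1, and its log2 fold change fell from 2.07 to 1.36 without that library (limma adjusted p = 0.026 with all 7), while without any 1 activated library the adjusted p of *Klf4* rose above 0.05. *Pdlim1*, an adaptor that restrains NF-κB, with 1 near-identical copy, rose 3.97-fold, from 25.2 ± 0.733 to 99.9 ± 19.2. *Tcf7* (log2 fold change 0.18 ± 0.12 (SE), limma adjusted p = 0.291) and *Lef1* (log2 fold change -0.29 ± 0.11 (SE), limma adjusted p = 0.0824), the factors of naive and stem-like T cells, did not pass.

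Early TCR-induced transcription factor genes were not called by the 4-fold rule in either direction. Of 32 tested (34 listed, median 0.17), 4 were higher and 1 lower by the 2-fold rule. *Jun*, a subunit of AP-1 with *Junos* over its exons, was 5.71, 3.86, 4.86, and 4.58 in activated and 38.3, 9.64, and 14.5 in restimulated libraries, with replicate 1 highest (log2 fold change 1.87 ± 0.44 (SE), limma adjusted p = 0.0188). *Nr4a2*, an orphan receptor of the Nur77 family, went from 26.3 ± 1.49 to 61.1 ± 9.45 (2.33-fold), *Bhlhe40*, a cofactor of GM-CSF production with *0610040F04Rik* over its exons, from 96.9 ± 18.2 to 207 ± 66.2 (2.14-fold), and *Fosl1*, which has 1 copy and overlaps *Ccdc85b*, from 2.00 ± 0.263 to 4.16 ± 0.356. Without restimulated replicate 1 *Bhlhe40* was 0.82 and *Fosl1* 0.97 on the log2 scale, without activated replicate 2 they were 0.96 and 1.00, and without activated replicate 1 *Fosl1* was 0.96. Without activated replicate 2 *Jun* also missed the adjusted threshold. *Jund*, the 1 member called lower, went from 154 ± 7.75 to 71.6 ± 6.83, but it has 1 copy and *Gm11175* over its exons, and its locus differed between the experiments (0.58 of the joint span shared), as did that of *Egr2* (0.643). The immediate early genes *Egr1* (83.0, 89.2, 85.5, and 82.1 against 60.7, 71.7, and 57.2) and *Egr2* (31.1, 37.0, 31.7, and 34.4 against 21.3, 24.4, and 23.5) were lower in every restimulated library, by less than 2-fold (limma adjusted p = 0.00813 and 0.00311). *Egr3* was lower too (log2 fold change -0.83 ± 0.20 (SE), limma adjusted p = 0.0191), and *Nr4a1*, which encodes Nur77, did not pass (log2 fold change 0.18 ± 0.10 (SE), limma adjusted p = 0.225). Also under 2-fold and without overlap, *Rel* (0.59, limma adjusted p = 0.00732), *Myc* (0.48, 0.0403), and *Ier2* (0.15, 0.0374) were higher. *Nfatc1* (-0.33, limma adjusted p = 0.00367) and *Srf* (-0.25, 0.0243) were lower. Of the 32 members 18 had a positive log2 fold change.

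Feedback regulators of signalling were among the lists with most members tested, 44 of 46, with a median of 0.19, none called by the 4-fold rule, and 4 higher and 3 lower by the 2-fold rule. The regulators of G protein signalling *Rgs1* (from 83.7 ± 3.90 to 243 ± 82.4) and *Rgs2* (from 15.6 ± 1.26 to 62.2 ± 31.3) rose 2.91-fold and 4.00-fold in the group means (log2 fold changes 1.48 and 1.88), and the MAP kinase phosphatase genes *Dusp4* (from 41.8 ± 8.10 to 120.0 ± 28.7) and *Dusp5* (from 31.9 ± 1.72 to 70.2 ± 12.3) 2.87-fold and 2.201-fold. *Socs2*, a suppressor of cytokine signalling with 2 copies, was lower, from 79.2 ± 7.10 to 30.2 ± 3.68, but its locus differed between the experiments (0.169 of the joint span shared), as did that of *Rgs1* (0.759), and *AC137853.2* lies over exons of *Dusp5*. The Ras pathway inhibitor gene *Spry4* (log2 fold change -1.08 ± 0.25 (SE), limma adjusted p = 0.0175) and the adaptor gene *Lax1* (log2 fold change -1.06 ± 0.19 (SE), limma adjusted p = 0.00583) fell as well. Without restimulated replicate 1 *Dusp5* was 0.99, *Spry4* -0.83, and *Lax1* -0.89 on the log2 scale, and *Lax1* was -0.98 without activated replicate 2, all short of 2-fold. *Spry4* missed the adjusted threshold by little without activated replicate 2 or 3.

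Of 27 tested helper lineage transcription factor genes (29 listed, median 0.18), 1 was higher by the 4-fold rule and 4 by the 2-fold rule, with none lower. *Ahr*, the aryl hydrocarbon receptor gene, with *Gm48236* over its exons, was 0.577, 0.439, 0.394, and 0.39 in activated and 2.49, 4.32, and 1.68 in restimulated libraries. Its groups were apart (6.28-fold, log2 fold change 2.32 ± 0.32 (SE), limma adjusted p = 0.00204). *Bcl6*, the follicular helper factor gene, with *Gm37419* over its exons, rose from 2.02 ± 0.1 to 4.45 ± 0.553 (log2 fold change 1.09 ± 0.11 (SE), limma adjusted p = 0.000567; 1.00 without restimulated replicate 3), and *Hlx*, a homeobox gene, from between 0.0445 and 0.129 to between 0.292 and 0.433. The activated mean of *Hlx*, 0.0956, was under the 0.1 of the filter, which set the sign of its change. Without restimulated replicate 2 *Ahr* was 1.97 on the log2 scale. *Tbx21*, which encodes the Th1 factor T-bet, was 29.4, 39.0, 18.7, and 22.8 against 14.9, 2.87, and 44.6, a wide spread in the restimulated group, and did not pass (log2 fold change -1.08 ± 0.85 (SE), limma adjusted p = 0.377). Restimulated replicate 3, high for *Tbx21*, was also the highest of all 7 libraries for *Ifng* and *Nkg7*. *Eomes*, with *Gm33460* over its exons, did not pass either (log2 fold change 1.31 ± 0.44 (SE), limma adjusted p = 0.0621).

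Of 15 tested cytotoxic genes (24 listed, median 0.45), 1 was higher by the 4-fold rule and 6 by the 2-fold rule, with none lower. *Serpinb6b*, a serpin gene of the family that inhibits granule proteases, was 11.4, 5.26, 9.69, and 6.47 in activated and 48.5, 37.6, and 47.0 in restimulated libraries. The restimulated values were all far above the activated ones (5.41-fold, log2 fold change 2.48 ± 0.27 (SE), limma adjusted p = 0.000859). *Serpinb9*, the granzyme B inhibitor gene, rose 2.87-fold, from 8.99 ± 1.27 to 25.8 ± 8.31, and *Gzmf*, a minor granzyme gene with *Gm4022* over its exons, from between 0 and 0.0844 to between 0.279 and 0.651. *Klrc1*, an NKG2 receptor gene with 2 copies, rose from between 0.0127 and 0.184 to between 0.22 and 0.548, and *Fasl* and *Crtam*, given above, are the other 2. The activated means of *Gzmf* (0.059) and *Klrc1* (0.070) were under the 0.1 of the filter, so the sign of these 2 changes was set by the filter. *Klrc1* missed the adjusted threshold without any 1 library but activated replicate 3 and restimulated replicate 3. *Gzmb*, which encodes granzyme B, was 21.2, 16.1, 31.0, and 21.4 against 63.4, 15.8, and 22.4, within the activated range in replicate 3 and just below it in replicate 2 (log2 fold change 0.37 ± 0.48 (SE), limma adjusted p = 0.589).

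Interferon-stimulated genes varied by library within both groups. Of 29 tested (33 listed, median 0.27), 2 passed an adjusted p of 0.05 by limma, of which 1 was higher by the 4-fold rule and the other lower by the 2-fold rule. *Oasl1*, an inhibitor of IRF7 translation, with *Gm13822* over its exons, was 1.05, 0.446, 1.17, and 0.581 in activated and 20.5, 3.01, and 3.26 in restimulated libraries. Replicate 1 was far highest, and the log2 fold change fell from 2.81 to 1.92 without it (limma adjusted p = 0.0248 with all 7), and *Oasl1* missed the adjusted threshold without activated replicate 2 or 4. *Gbp2*, an interferon-induced GTPase gene, fell by the 2-fold rule, 569, 799, 577, and 639 against 204, 111, and 332 (log2 fold change -1.71 ± 0.35 (SE), limma adjusted p = 0.0111).

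Restimulated replicate 1 was the highest of all 7 libraries for 23 of the 29 genes, and activated replicates 1 and 3 were above activated replicates 2 and 4 for 22. *Ifit1* was 11.4, 4.22, 11.5, and 6.601 in activated and 85.5, 8.97, and 8.94 in restimulated libraries. *Mx1* was 19.6, 3.56, 15.9, and 7.89 against 80.6, 10.1, and 12.4, and *Usp18*, which shuts off the interferon receptor, 18.4, 5.00, 15.7, and 9.02 against 128, 16.5, and 21.6. The same libraries were high for each of them, and none passed the test (limma adjusted p = 0.299, 0.365, and 0.145). *Isg15* followed the pattern (36.0 to 119 against 70.7 to 362, highest in replicate 1). The median of the list relative to the activated mean was 1.66 in restimulated replicate 1, -0.16 in replicate 2, and 0.17 in replicate 3 on the log2 scale. *Adm*, *Ramp3*, *Klf4*, *Areg*, *Ccl5*, and *Jun* were also highest in restimulated replicate 1. Without that library the log2 fold change was 2.33 for *Adm*, 2.19 for *Ramp3*, 1.13 for *Areg*, and 1.14 for *Ccl5*.

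**Figure D3:**
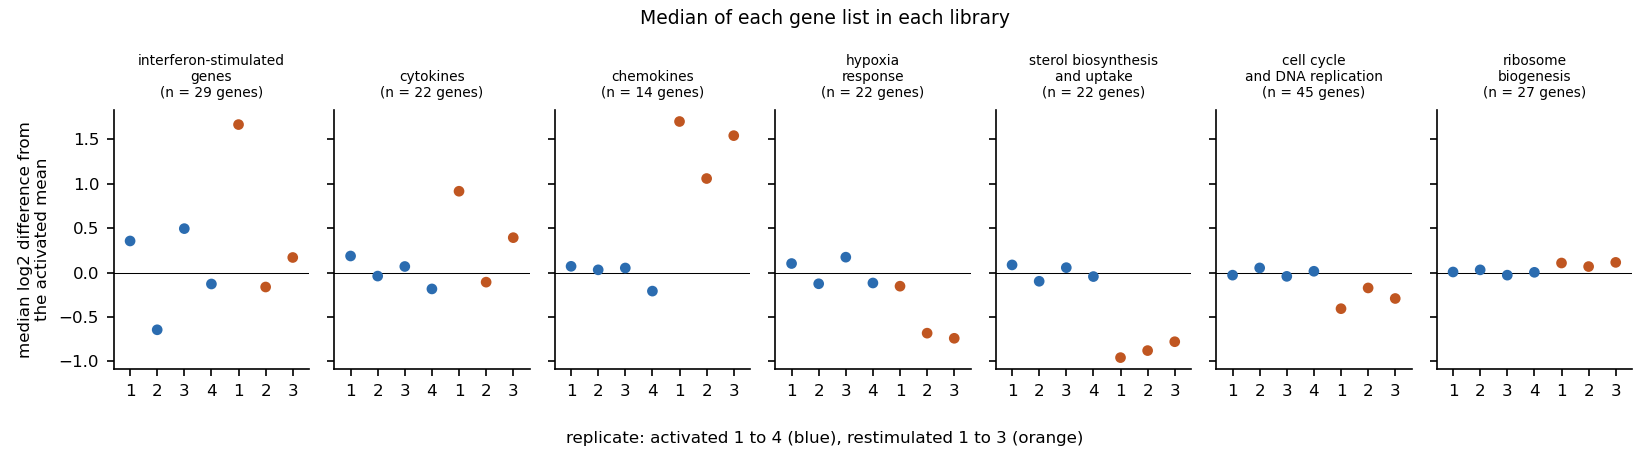
Median over the tested members of 7 gene lists of the log2 difference from the activated mean (y axis) in activated replicates 1 to 4 (blue) and restimulated replicates 1 to 3 (orange) on the x axis. Interferon-stimulated genes stood at 1.66 in restimulated replicate 1 and near 0 in replicates 2 and 3, whereas sterol genes lay between -0.96 and -0.78 in all 3 restimulated libraries and chemokine genes between 1.06 and 1.70. The chemokine list holds members that passed the filter only through the restimulated group.

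Hypoxia response genes had a median below that of all genes tested. Of 22 tested (23 listed, median -0.61), 6 had a positive log2 fold change, 1 was higher and 3 were lower by the 4-fold rule, and 2 were higher and 4 lower by the 2-fold rule. *Egln3*, a HIF prolyl hydroxylase that HIF itself induces (chromosome 12, 54178981 to 54203860), was 54.7, 45.9, 57.7, and 34.9 in activated and 13.2, 2.37, and 3.70 in restimulated libraries. It fell without overlap, least in replicate 1 (7.52-fold lower, log2 fold change -3.25 ± 0.55 (SE), limma adjusted p = 0.0052), and the log2 fold change was -3.95 without that library. *Higd1a*, a hypoxia-induced mitochondrial gene, was 115, 107, 121, and 112 against 16.2, 12.7, and 12.9. The groups were far apart (8.17-fold lower, log2 fold change -3.03 ± 0.10 (SE), limma adjusted p = 2.69e-06), but it has 2 copies and *Gm47112* over its exons. *Bnip3*, a mitophagy receptor gene, with 5 copies and *Gm45507* over its exons, went from 44.0 ± 5.52 to 10.5 ± 5.50 (log2 fold change -2.17 ± 0.30 (SE), limma adjusted p = 0.00227; -1.97 without restimulated replicate 2 or 3), and *Fam162a*, which overlaps *Wdr5b*, fell 2.13-fold, from 280.1 ± 15.1 to 132 ± 7.78. *Adm*, the member that rose by the 4-fold rule, is itself HIF-induced, and *Bhlhe40*, given above, was the other member that rose. The median of the list relative to the activated mean was -0.15 in restimulated replicate 1, -0.68 in replicate 2, and -0.74 in replicate 3 on the log2 scale, so replicate 1 lay nearest the activated libraries.

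Of 21 tested glycolysis and nutrient transport genes (28 listed, median -0.31, 6 positive), 1 was lower by the 4-fold rule, and 1 was higher and 5 lower by the 2-fold rule. *Pgam1* was the 4-fold member. The phosphofructokinase gene *Pfkl* was 89.6, 86.1, 89.4, and 91.3 in activated and 35.1, 36.2, and 33.8 in restimulated libraries. Its spread was small in both groups (2.54-fold lower, log2 fold change -1.34 ± 0.04 (SE), limma adjusted p = 2.46e-06). *Pfkp*, which overlaps *Pitrm1*, fell 2.02-fold, *Tpi1*, the triose phosphate isomerase gene with 1 copy and *Spsb2* over its exons, 2.28-fold, and *Slc16a3*, which encodes the lactate exporter MCT4, 2.56-fold, from 123 ± 10.2 to 47.96 ± 12.3. *Pfkp* was -0.84 on the log2 scale without restimulated replicate 2. *Eno3*, the muscle enolase gene, rose, from 46.9 ± 4.95 to 124 ± 44.4 (log2 fold change 1.34 ± 0.24 (SE), limma adjusted p = 0.00679).

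Sterol biosynthesis and uptake genes had a median of -0.86, the lowest of the pathway lists. Of 22 tested (26 listed), 3 had a positive log2 fold change, 6 were lower by the 2-fold rule, and none was called in either direction by the 4-fold rule. *Hmgcs1*, the HMG-CoA synthase gene at the entry of the pathway, was 250.4, 219, 237, and 238 in activated and 106, 91.0, and 100.4 in restimulated libraries. It fell 2.38-fold with no overlap (log2 fold change -1.25 ± 0.07 (SE), limma adjusted p = 3.95e-05), and *Gm48342* lies over its exons. Of the later enzymes, *Pmvk* (phosphomevalonate kinase, whose locus differed between the experiments with 0.684 of the joint span shared) fell 2.95-fold, *Fdft1* (squalene synthase, with 1 copy and *Ctsb* over its exons) 2.04-fold, *Sqle* (squalene epoxidase) 2.00-fold, and *Lss* (lanosterol synthase, with *4930483K19Rik* over its exons) 3.098-fold. *Lss* levels were 54.3, 30.8, 52.6, and 33.6 in the activated and 13.5, 13.6, and 14.4 in the restimulated libraries, and *Sqle* levels 77.4, 72.6, 76.6, and 72.0 against 32.0, 39.6, and 40.1. *Sqle* and *Fdft1* lay at the 2-fold limit, and single omissions took them to -0.90 and -0.99, *Sqle* without restimulated replicate 1 and *Fdft1* without restimulated replicate 2.

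**Figure D4:**
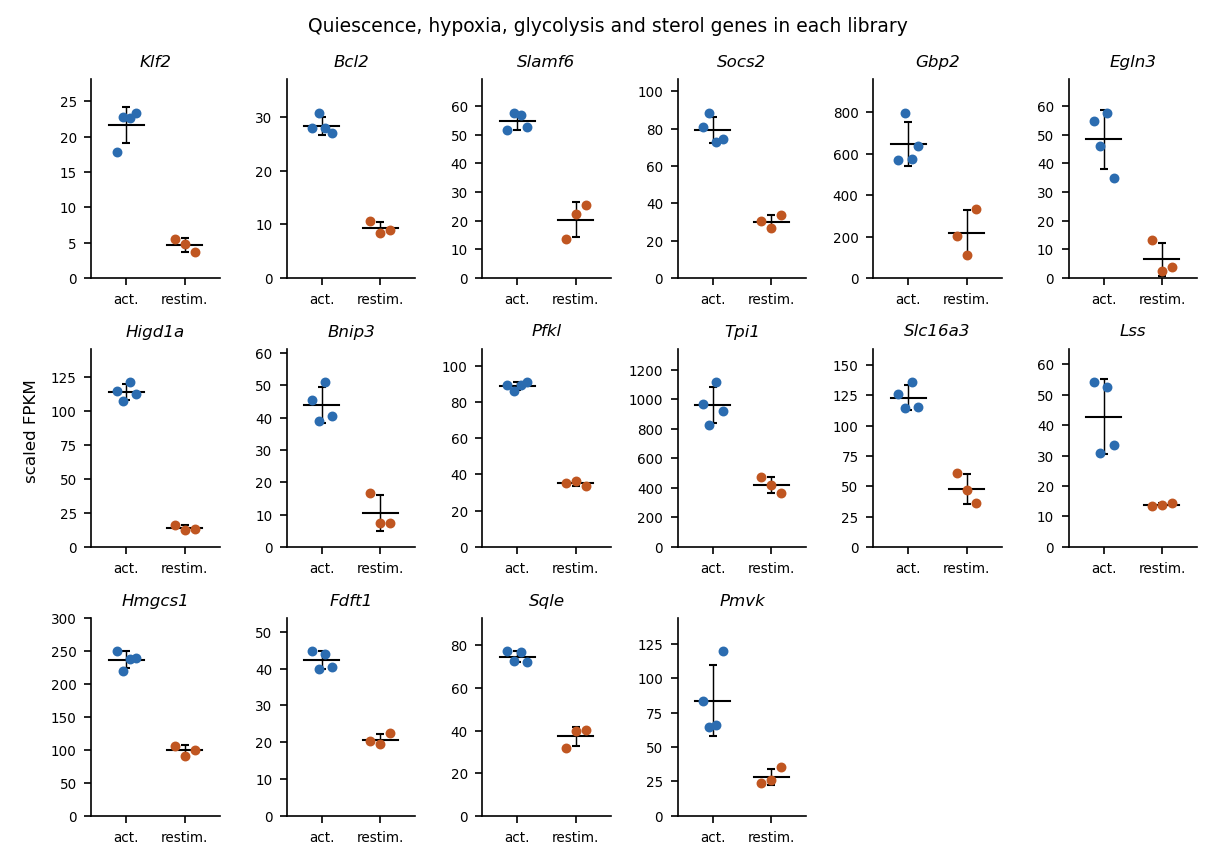
Scaled FPKM (y axis, from 0, a scale of its own in each panel) of genes of the quiescence, receptor, feedback, interferon, hypoxia, glycolysis, and sterol lists and of *Bcl2* in each activated (blue, n = 4) and restimulated (orange, n = 3) library, with the mean and SD in black. Every one of them was lower in every restimulated library than in any activated one.

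Cell cycle and DNA replication genes were slightly lower in the median (-0.27, with 7 of 45 tested above 0, 50 listed), but only 2 passed the 2-fold rule and both were higher. *Cdk4*, the G1 kinase gene that overlaps *Tspan31*, was 288, 304, 278, and 299 in activated and 652, 742, and 561 in restimulated libraries. The groups did not overlap (log2 fold change 1.15 ± 0.10 (SE), limma adjusted p = 0.000244). *Cdkn1a*, which encodes the inhibitor p21, was 60.6, 66.8, 57.2, and 59.7 against 149, 148, and 192, again without overlap (log2 fold change 1.41 ± 0.11 (SE), limma adjusted p = 0.000159), with *AC167363.2* over its exons.

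Of 12 tested heat shock genes (13 listed, median 0.34), 2 were higher by the 2-fold rule, *Hspa1a* (log2 fold change 1.53 ± 0.30 (SE), limma adjusted p = 0.00915) and *Hspa1b* (log2 fold change 1.52 ± 0.42 (SE), limma adjusted p = 0.0314), near-identical copies of each other, and *Hspa1b* missed the adjusted threshold without any 1 library but restimulated replicate 2. None of 27 ribosome biogenesis genes (median 0.11) was called by either rule. Of 23 tested amino acid response and ER stress genes (29 listed, median 0.03), *Cebpb*, listed at 0 in the restimulated libraries and covered by another locus, was the only 1 called. Of 12 tested BCL-2 family genes (median -0.01), 1 passed the 2-fold rule. That was *Bcl2*, the survival gene, which fell 3.05-fold from 27.9, 30.8, 27.9, and 26.9 in the activated to 10.6, 8.37, and 8.94 in the restimulated libraries (log2 fold change -1.603 ± 0.09 (SE), limma adjusted p = 4.82e-05), with *D630008O14Rik* over its exons. In all, of 499 list members tested, counting each gene once, 17 (3.41%) were called higher and 8 (1.6%) lower by the 4-fold rule, against 2.02% and 1.15% of all genes. Among the 8, *Tcrg-C1* and *Cebpb* are listed at 0 in all restimulated libraries. By the 2-fold rule the loci of 2 members called higher and 3 called lower differed between the experiments.

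**Figure D5:**
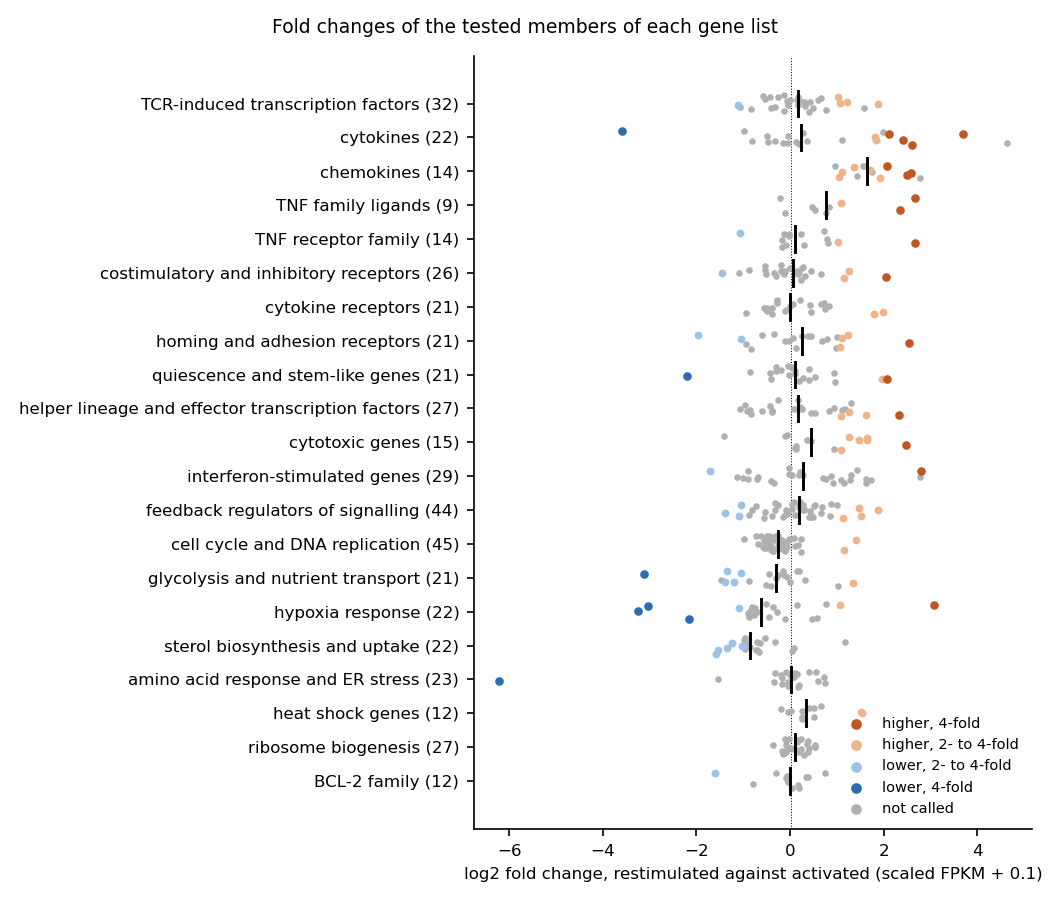
Log2 fold change on log2(scaled FPKM + 0.1) of restimulated against activated cells (x axis) for each tested member of each gene list (rows, number tested in brackets), with 4-fold calls in dark orange and dark blue and 2-fold calls in light shades. The black bar is the list median and the dotted line the median of all genes, 0.02. Chemokines had a median of 1.64, with members that passed the filter only through the restimulated group, and sterol genes of -0.86.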

How the data were processed

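In the methods of the paper, RNA-Seq libraries were made from sorted viable CD4+ T cells with a stranded mRNA kit, and reads were mapped to mm10 with TopHat. Cufflinks, run on each library alone, gave the deposited FPKM values, a unit relative to library size and transcript length. For the restimulated cells the paper cites an earlier study and does not say whether library preparation and mapping were the same. The submitters' processing notes also name FastQC, STAR 2.5.2b, Subread 1.5.1, R 3.4, and edgeR without giving their role. No counts were used. Transcripts were assembled per library, so a gene can be split between a named and a nameless locus, and 2700 tested genes carried their name in all 7 libraries, 4628 were matched by position in all 7, and 5710 were mixed. Many genes named in the text are mixed. For example, *Rasgef1b* and *Il2* carried their name in 3 of the 7 libraries, *Tnfsf11* and *Egln3* in 2, and *Stfa3* in 6.

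The 7 WT libraries were grouped by their labels. Median ratios over 8814 autosomal genes with at least 1 FPKM in every library gave size factors of 0.968 to 0.973 for activated and 1.01 to 1.06 for restimulated libraries. Values of failed status were left out. log2(FPKM + 0.1) was fitted with limma 3.58.1 in R 4.3.3 with a variance trend on intensity, and p-values of 13038 genes were adjusted after Benjamini and Hochberg. Every adjusted p in the text is from that fit. Fold changes are on this scale and understate the change of low genes. Folds printed beside them are ratios of the group means of scaled FPKM. Near-identical copies are matches of at least 90% identity over at least 0.5 of the coding sequence at another gene in GENCODE (blastn 2.17.0). Promoters are from RefSeq.

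Genes named were the 20 largest rises and falls by log2 fold change among called protein-coding genes with alike loci in both experiments and a mean of at least 5 in the higher group, members of the gene lists, and the genotype and cell type checks. Some members counted in the lists are not reported here by name. Comparisons, members, and lists were chosen with earlier results of these data known. On simulated data with 13038 genes the fit recovered 84 of 100 genes changed by 2.5 on the log2 scale. It recovered 92 of 100 changed by 4, and 4 calls were false. Whether false calls are as few in the deposited libraries, where experiment and restimulation cannot be told apart, was not tested. Alternatives changed the scaling, pseudocount, filter, locus matching, variance model, replicate block, and each library in turn. Alternatives on values of failed status, overlapping loci, and copies were chosen after seeing the data. pandas 2.3.3, numpy 2.4.6, and matplotlib 3.10.9 served for tables and figures.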

Additional observations from a re-analysis of the deposited data

Results flagged for a closer look

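Of 150 genes examined for single libraries that stood apart, 6 (4.0%) had 1 activated library whose gap to the nearest other library exceeded Dixon's 95% critical share of the range of the group of 4. Chance flags about 1 in 20 groups, so this number is near what chance gives, and the 3 restimulated libraries were too few to examine. *Mkln1* was 23.5 in activated replicate 4 against 6.22 to 6.45 in the other 3, and its log2 fold change was 4.07 without that library. *Nebl* was 2.09 in activated replicate 1 against 0.563 to 0.778 (4.35 without it), and *Rps20* was 190.5 in replicate 3 against 176 to 178 (3.73 without it). *B430305J03Rik* was 6.75 in replicate 2 against 5.85 to 5.98 (-5.92 without it) and *Il7r*, the IL-7 receptor chain gene, was 3.36 in replicate 2 against 2.05 to 2.21 (0.61 without it). *Klf2* was 17.9 in replicate 1 against 22.7 to 23.4 (-2.30 without it). No direction changed when the library was left out.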

How the results depend on the processing

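Of 264 genes called higher and 150 called lower, counts moved by more than 1.5 times under a pseudocount of 1 (99 and 68, of which 98 and 65 were among the original calls), among genes listed by name in all 7 libraries (84 and 69), among genes with no other gene over the exons and no covering locus (174 and 88), among protein-coding genes without a near-identical copy (162 and 66), and when the fold minimum was 2 (848 and 542). A mean FPKM of at least 1 left 171 higher, a pseudocount of 0.01 gave 239 lower, and protein-coding genes alone gave 89 lower. The settings by name, overlap, copies, protein-coding genes, and minimum mean test fewer genes than the main fit. Of the genes tested in the main fit, 2700 carried their name in all 7 libraries and 10511 were protein-coding. Lower counts under these settings therefore need not mean that calls were lost. All 84 and 69 calls among genes listed by name were also calls of the main fit. Leaving out each library in turn gave 250 to 292 higher and 151 to 176 lower. The 17 list members called higher became 10 with a pseudocount of 1, 4 among genes listed by name, 54 at 2-fold, and 12 to 21 without single libraries. The 8 called lower became 2 among genes listed by name, 4 without overlapping loci, 4 without copies, 31 at 2-fold, and 7 to 11 without single libraries. Settings that keep only some genes also test fewer list members, so their counts are not shares.

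The replicate block gave 230 higher, 130 lower, and 11 list members higher. Same-numbered libraries did not deviate together (correlations 0.028, 0, and -0.015) and come from separate experiments, so they share only a number. A sex covariate was not run, because the *Xist*-low library was 1 restimulated replicate and no activated one.

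Directions that turned were those of genes that did not pass the test. Over single-library omissions *Nkg7* ranged from -0.78 without restimulated replicate 3 to 0.67, *Ifng* from -0.41 without restimulated replicate 3 to 1.03, *Tnf* from -0.43 to 0.11 without restimulated replicate 1, and *Gzmb* from -0.21 without restimulated replicate 1 to 0.79. *Nkg7* was also below 0 without activated replicate 3. With sample weights *Tnf* was 0.020 and *Gzmb* -0.042. Of 124 named genes with an adjusted p of at most 0.05 (limma), 92 kept it under every alternative that gave them a value. *Hdac1* lost it under most settings, with an adjusted p of 0.49 with no further scaling. Low genes are limited by depth, and the cause of the differences between settings was not tested.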
